A study of Mus musculus and synthetic construct with 3 samples.

Results

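The aneurysm wall was divided by its distance to the smooth muscle cells (SMCs) that remained in it, and the tissue just around these cells was compared with tissue of the same sections farther away. Seq-Scope, in which a section lies on barcoded DNA clusters that capture its polyadenylated RNA and whose places are known, was read in hexagons with 12 μm sides and at least 50 detected genes. Of 11669 such hexagons in all 20 sections, 10201 lay in the 10 sections with abdominal aortic aneurysm (AAA). In these, 784 hexagons held 3 or more unique molecular identifiers (UMIs, 1 per captured RNA molecule) summed over Acta2, Tagln, Myl9, Myh11 and Csrp2 and served as smooth muscle hexagons. The zones were thus chosen by measured values, the UMIs of these 5 genes. Among the remaining hexagons, 3479 were centred at most 45 μm from the centre of one of these 784 and are called near. Another 3336 were more than 90 μm from all of them and are called far, and 2602 lay in between. Near and far hexagons together made up 66.8% of the AAA hexagons. A hexagon is a small piece of tissue that can hold parts of several cells.

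All tissue came from male Apoe-/- mice that carry no working apolipoprotein E and were fed a normal diet. Of 5 mice given angiotensin II (AngII; 1000 ng/ml in the labels) by subcutaneous minipump for 4 weeks, 3 developed AAA, and only these 3 enter the comparison. The labels give an age of 16 weeks, and the study's methods a younger age at implantation. Saline-infused control aortas lay on the same array and were not part of the comparison. Sections were 10 μm thick and came from the fresh frozen suprarenal abdominal aorta. The near and far values of a mouse come from the same sections, so they were compared in pairs, and n is 3 mice throughout.

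In a healthy aorta, SMCs fill the media, where they contract and maintain sheets of elastin. The adventitia outside the media is rich in collagen-producing fibroblasts, and perivascular fat surrounds it. AngII infusion in Apoe-/- mice is known for breaks in the elastic sheets, loss of medial SMCs, a thickened fibrous outer wall and macrophage infiltration. Matrix around SMCs includes elastin, fibronectin and matricellular proteins such as those of the CCN family, which are secreted and bind to matrix and cell surface receptors without forming its scaffold.

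Near and far tissue was present in every AAA section. Near hexagons numbered 1910, 653 and 916 in mice 1, 2 and 3, and far hexagons 1727, 661 and 948. A section held 90 to 892 near and 76 to 724 far hexagons. The smooth muscle hexagons themselves were often isolated, since 202 of the 784 (25.8%) had no other within 45 μm, and 465 held exactly 3 contractile UMIs, the least the rule allows. Just below that limit, 609 near and 248 far hexagons held 2.

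**Figure D1:**
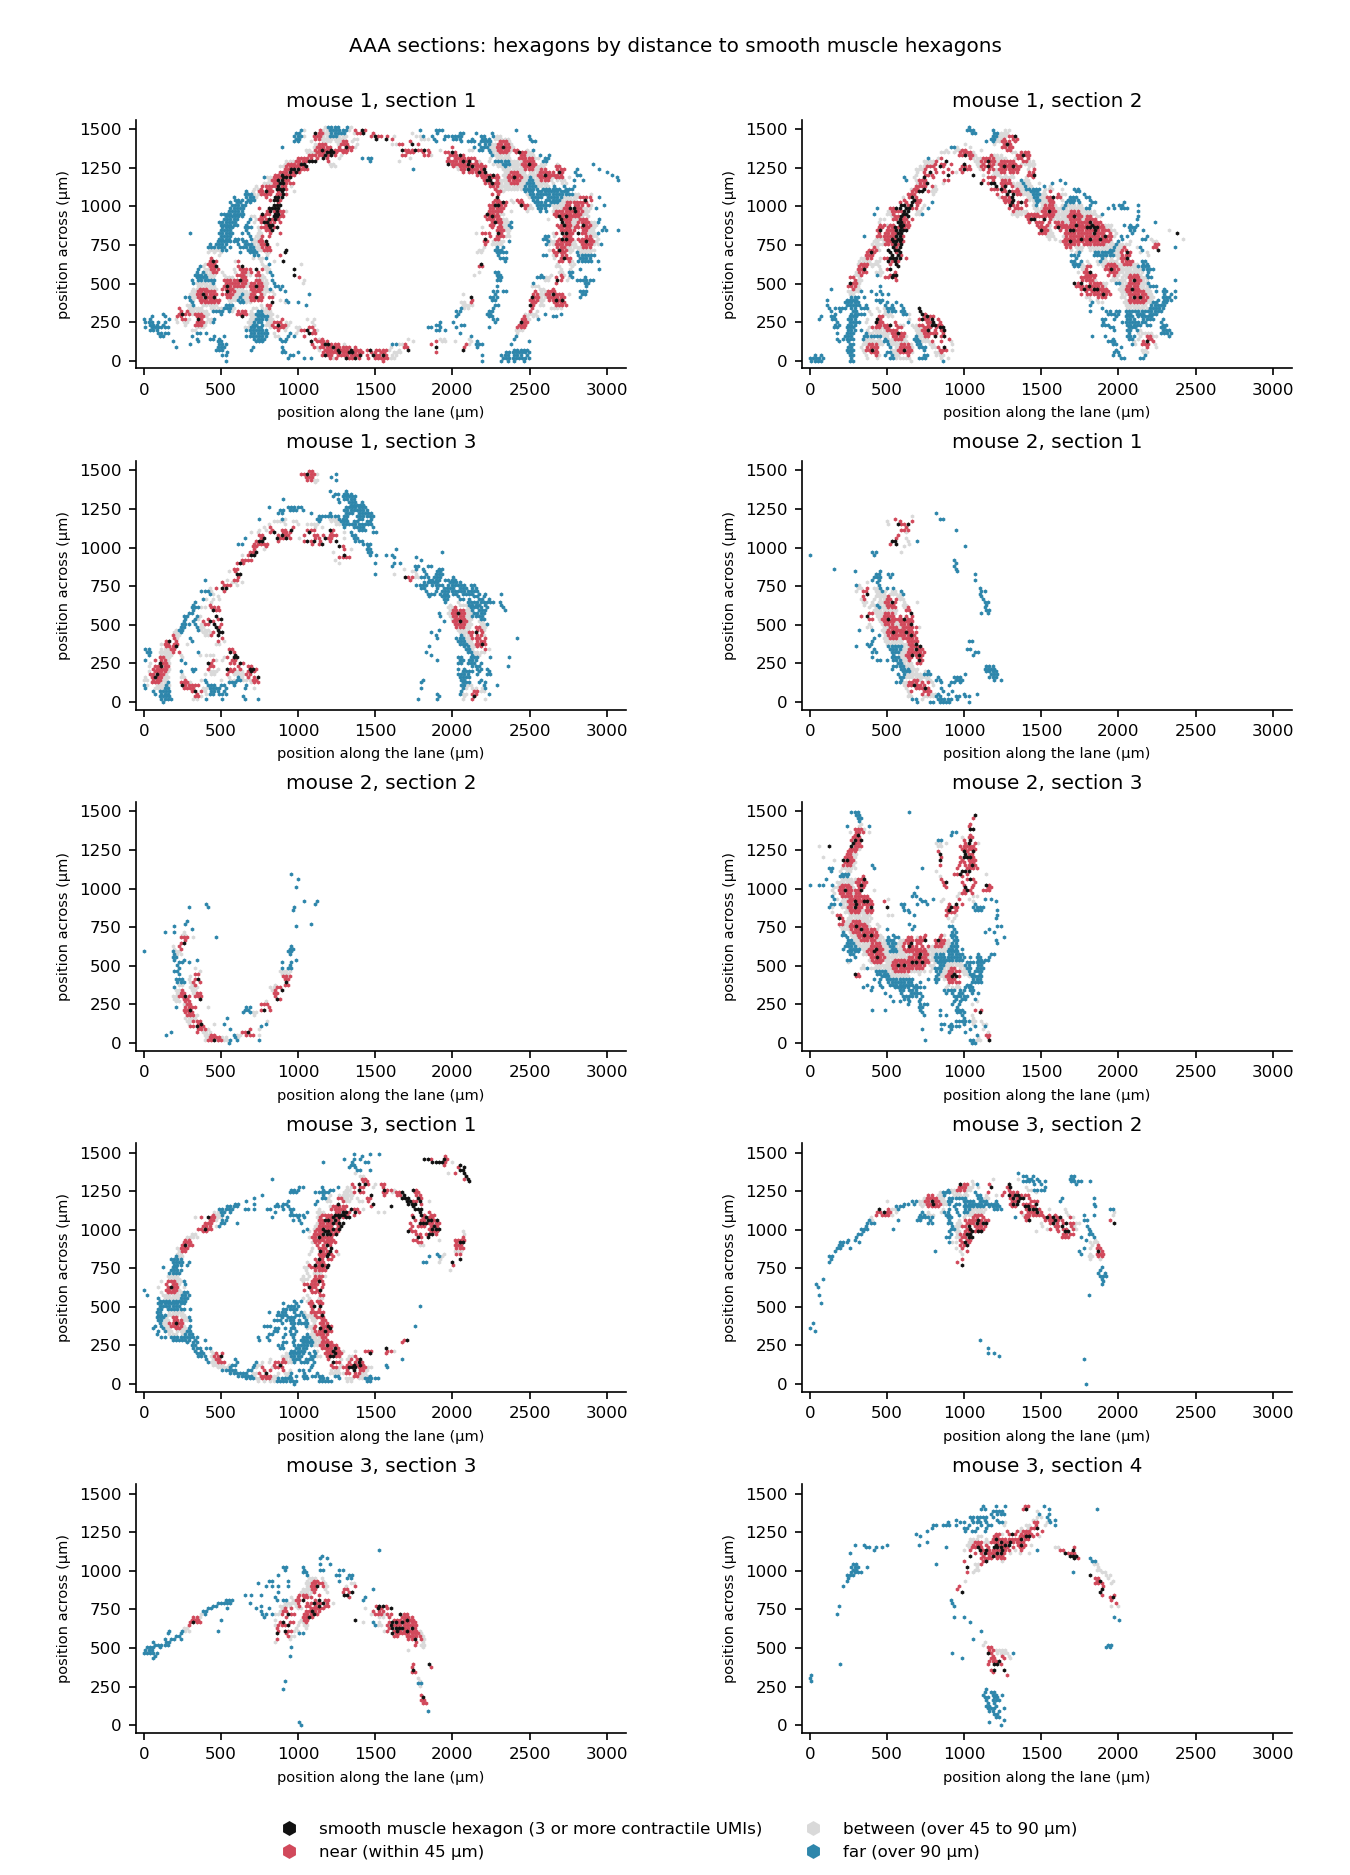
Positions of the hexagons in the 10 AAA sections, with micrometers from the edge of each section's hexagons on both axes. Smooth muscle hexagons (black) run along arcs of the wall and also stand alone outside them with near hexagons (red) around them, hexagons in between are grey, and far hexagons (blue) fill parts of the wall of every section.

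Depth moved with the zones. The median number of UMIs per near hexagon was 84, 88 and 73 in mice 1, 2 and 3, and 71, 70 and 67 per far hexagon. In total the near zone of a mouse held 66103 to 193179 UMIs and the far zone 52084 to 146149. Levels are therefore given as CPM, the UMIs of a gene scaled to a common total of exonic UMIs per zone, which corrects for the total but not for other properties of deeper hexagons.

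The contractile genes that defined the zones are described first, without a test. Although every hexagon with 3 or more of their UMIs had been set aside, near hexagons held 0.674, 0.610 and 0.814 of them on average in mice 1, 2 and 3, against 0.461, 0.439 and 0.443 in far hexagons. Acta2, which encodes smooth muscle α-actin, stood at 3256, 2950 and 5014 CPM near and at 2805, 2746 and 2804 CPM far. Tagln, which encodes the actin-binding protein transgelin, stood at 1465, 1165 and 2650 CPM near and at 1102, 1133 and 1437 CPM far. The near tissue thus kept an excess of contractile RNA, and it was largest in mouse 3. Log2 fold changes of Acta2, Tagln, Myl9 and Csrp2 were 0.40, 0.50, 0.37 and 0.76. These are of the size of several changes called below, such as 0.39 for Mgp and 0.53 for Fn1. Every smooth muscle gene below has to be read beside this excess. Fewer SMCs in a hexagon and less RNA per SMC cannot be told apart here.

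Over all other genes, those higher near smooth muscle included Ccn2, Cpe, Eln, Mfge8, Fn1 and Mgp, and those lower near included the adipocyte genes Cfd, Fabp4, Hp, Lpl and Glul. Of 1306 genes tested, 25 passed an adjusted p of 0.05 (1.91%), of which 17 were higher near (1.3%) and 8 lower near (0.613%), by edgeR's quasi-likelihood test with mouse as a block and Benjamini-Hochberg adjustment. The median log2 fold change of all tested genes was -0.02. Of the 17 higher genes, 16 were higher in all 3 mice, and 16 were higher near in at least 8 of the 10 sections. All 8 lower genes were lower near in all 3 mice, and 7 of them in at least 8 sections. Among all tested genes, 14.4% were higher and 16.8% lower near in all 3 mice. The near values of all mice lay above all far values for 13 of the 17 higher genes, against 6.13% of all tested genes, and below them for 6 of the 8 lower genes, against 6.05%, which is partly what a call requires. Before adjustment, 86 genes were higher and 51 lower at a p under 0.05. The gene lists used below were chosen with earlier results of these data known. Counts within a list are therefore description and no independent support.

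The number of calls depended strongly on the test and on single mice. DESeq2 called 0 genes higher and 1 lower (Cfd) with 16 and 8 at an unadjusted p under 0.05, and edgeR without the mouse block called 1 higher (Ccn2) and 3 lower (Cfd, Fabp4 and Cmpk1). Without mouse 1, 2 genes were called higher (Ccn2 and Mgp) and 1 lower (Cfd), without mouse 2, 14 and 5, and without mouse 3, 5 and 4. Without the first section of mouse 3, which borders on a control section, 6 were called higher and 3 lower. All 25 called genes kept their direction in each of the 23 other settings in which they could be tested. These settings reuse the UMIs in which the genes were called, so kept directions largely follow from the choice of genes. When only hexagons with 0 contractile UMIs were compared, 627 genes could be tested, of which 1 was higher (Mfge8) and 2 lower (Cfd and Fabp4), and the 20 called genes among them had the same direction as before.

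**Figure D2:**
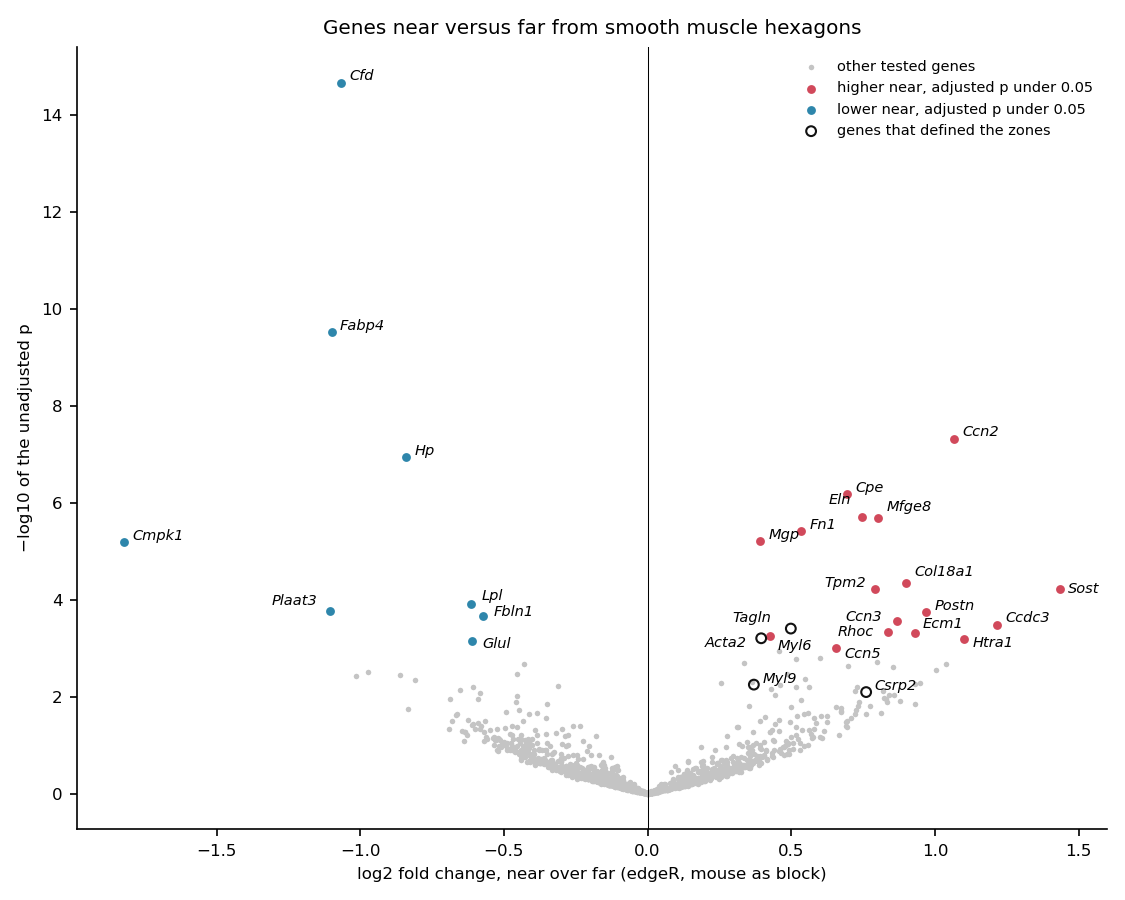
Log2 fold change of near over far tissue against −log10 of the unadjusted p for 1310 genes, in the edgeR fit over 3 AAA mice with mouse as a block. The 17 genes higher near (red) lie to the right and the 8 lower near (blue) to the left. Circles mark 4 of the genes that defined the zones, for which the p has no meaning as a test, and Cfd stands highest.

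All 3 tested members of the CCN family rose near smooth muscle, where 1.3% of all tested genes did. Ccn2 (connective tissue growth factor, a matricellular protein induced by TGF-β and by mechanical load) is encoded on chromosome 10 at 24595442 to 24598683 of GRCm38. It stood at 854, 983 and 1353 CPM near smooth muscle in mice 1, 2 and 3 and at 588, 326 and 442 CPM far from it. The groups did not overlap, and Ccn2 was higher near in 9 of 10 sections. Its log2 fold change was 1.07 ± 0.18 (SE of the fit, n = 3 mice, edgeR adjusted p = 2.06e-05), or 2.10-fold. Each SE of a log2 fold change given here is that change divided by the square root of the edgeR test's F. The test shares information on variability between genes, so such an SE does not measure the spread of the 3 mice. The log2 ratios of Ccn2 were 0.54, 1.59 and 1.61 in mice 1, 2 and 3. At least 1 Ccn2 UMI was found in 7.02%, 8.27% and 8.84% of near hexagons and in 4.29%, 2.42% and 3.17% of far ones. Free RNA on the array can give such UMIs too, and near hexagons were deeper, so the CPM is the level to compare.

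Ccn3 (NOV) stood at 445, 484 and 710 CPM near and at 281, 384 and 221 CPM far, and Ccn5 (WISP2), a family member that lacks the C-terminal domain of the others, at 673, 802 and 697 CPM near and at 527, 269 and 470 CPM far. Near and far values were separate for both. The log2 fold changes were 0.87 ± 0.23 and 0.65 ± 0.19 (SE; edgeR adjusted p = 0.0196 and 0.0477). Ccn3 had 0.57 without mouse 3 and Ccn5 0.44 without mouse 2, and neither then passed (edgeR adjusted p = 0.621 for both). In the wider list of CCN and TGF-β family genes, these 3 were the ones called among 7 tested, and the list's median log2 fold change was 0.52, against -0.02 for all genes. Serpine2, an inhibitor of thrombin and plasminogen activators on the same list, stood at 730, 530 and 751 CPM near and at 438, 442 and 594 CPM far, and did not pass (log2 fold change 0.52 ± 0.18, edgeR adjusted p = 0.152).

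Of 10 tested genes of the elastic fibre list, Eln and Mfge8 were higher near, as were 1.3% of all tested genes, and Fbln1 was lower, as were 0.613%. Eln, which encodes tropoelastin, the soluble precursor of elastic sheets, stood at 1330, 1180 and 2022 CPM near in mice 1, 2 and 3 and at 739, 1075 and 967 CPM far. The difference was small in mouse 2 and largest in mouse 3, and no near value fell among the far values. Its log2 fold change was 0.75 ± 0.14 (SE, edgeR adjusted p = 0.000379). With the hexagon grid moved it was 0.29 and did not pass (edgeR adjusted p = 0.547). Mfge8, which encodes lactadherin, a secreted protein that binds phosphatidylserine on dying cells and whose fragment medin deposits in aging arteries, stood at 963, 1089 and 1271 CPM near and at 520, 710 and 718 CPM far. All near values exceeded all far values (log2 fold change 0.80 ± 0.16, edgeR adjusted p = 0.000379). Mfge8 also passed when no near or far hexagon held a contractile UMI, with a log2 fold change of 0.95 (edgeR adjusted p = 0.00231). In that comparison Ccn2 had 0.85, Eln 0.65, Fn1 0.33 and Mgp 0.30. None of these passed (edgeR adjusted p = 0.0537, 0.0537, 0.37 and 0.0668). The study lists Ccn2, Cpe, Fn1, Mfge8 and Col18a1 among the markers of its SMC cluster. For its Mgp-high fibroblast cluster it lists Mgp, Eln, Fn1, Ccn2 and Cpe. The study places that cluster near the media of small aneurysms and around dissected areas. All of these genes too have to be read beside the contractile excess.

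Fibulin-1 went the other way. Fbln1 stood at 1185, 575 and 560 CPM near and at 1635, 979 and 884 CPM far. It was lower near in each mouse, although the near value of mouse 1 exceeded the far values of mice 2 and 3. The log2 fold change was -0.57 ± 0.15 (SE; edgeR adjusted p = 0.0165), and -0.69 after hexagons with 2 or more UMIs of the fat genes Cfd, Adipoq, Fabp4 and Car3 were left out (edgeR adjusted p = 0.00296). Other settings made the change of Fbln1 smaller. With UMIs over whole genes it was -0.20, and with a contractile minimum of 2 it was -0.12 (edgeR adjusted p = 0.794 and 0.957). With at least 75 genes per hexagon it was -0.37, and without contractile UMIs -0.30 (edgeR adjusted p = 0.419 and 0.528). The elastic fibre list as a whole had a median log2 fold change of 0.19.

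Fn1, which encodes fibronectin, a scaffold for the assembly of other matrix proteins and a ligand of integrins, stood at 3033, 2859 and 4672 CPM near and at 2231, 2074 and 2914 CPM far. Fn1 was higher near in all 10 sections. Its log2 fold change was 0.53 ± 0.11 (SE; edgeR adjusted p = 0.000638). None of the other 6 tested adhesion genes passed, although the median of the list was 0.41. Among them, Itgb1, the β1 subunit shared by many matrix receptors, had 404, 348 and 628 CPM near and 281, 403 and 304 CPM far (log2 fold change 0.52 ± 0.23, edgeR adjusted p = 0.33).

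Mgp, which encodes matrix Gla protein, an inhibitor of vascular calcification, was among the most counted RNAs of the wall. It stood at 13847, 14220 and 22802 CPM near and at 12487, 9830 and 16147 CPM far. Mgp and Postn were the ones called among 5 tested genes of a cartilage-like matrix list, against 1.3% of all tested genes called higher near. The median of the list was 0.39. The rise of Mgp was smallest in mouse 1, and mouse 3 was higher than the others in both zones. The log2 fold change was 0.39 ± 0.08 (SE; edgeR adjusted p = 0.000858), or 1.31-fold. Periostin (Postn), a matricellular protein of remodelling tissue, was higher near in mice 1 and 3 but not in mouse 2. It stood at 399, 303 and 669 CPM near and at 185, 326 and 235 CPM far (log2 fold change 0.97 ± 0.25, edgeR adjusted p = 0.0148).

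In the basement membrane list, Col18a1, whose C-terminal fragment is endostatin, was the one called among 7 tested genes. Of all tested genes, 1.3% were called higher near. Col18a1 stood at 564, 378 and 874 CPM near and at 328, 192 and 428 CPM far. The groups overlapped between mice, but within each of the 10 sections Col18a1 was higher near. The log2 fold change was 0.90 ± 0.21 (SE, edgeR adjusted p = 0.00528). Among hexagons without contractile UMIs it was 0.56 and did not pass (edgeR adjusted p = 0.49). Other secreted proteins on the near side were on none of the lists fixed for this comparison. The extracellular matrix protein gene Ecm1 had 347, 303 and 451 CPM near and 198, 154 and 207 CPM far, and Htra1, a secreted serine protease that cleaves matrix proteins, had 217, 197 and 287 CPM near and 89.0, 134 and 124 CPM far. Both passed with separate groups, at log2 fold changes of 0.93 ± 0.25 and 1.10 ± 0.31 (SE; edgeR adjusted p = 0.0285 and 0.0341). Ccdc3, a secreted protein known from endothelium and fat, also rose (log2 fold change 1.22 ± 0.32, edgeR adjusted p = 0.0225).

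**Figure D3:**
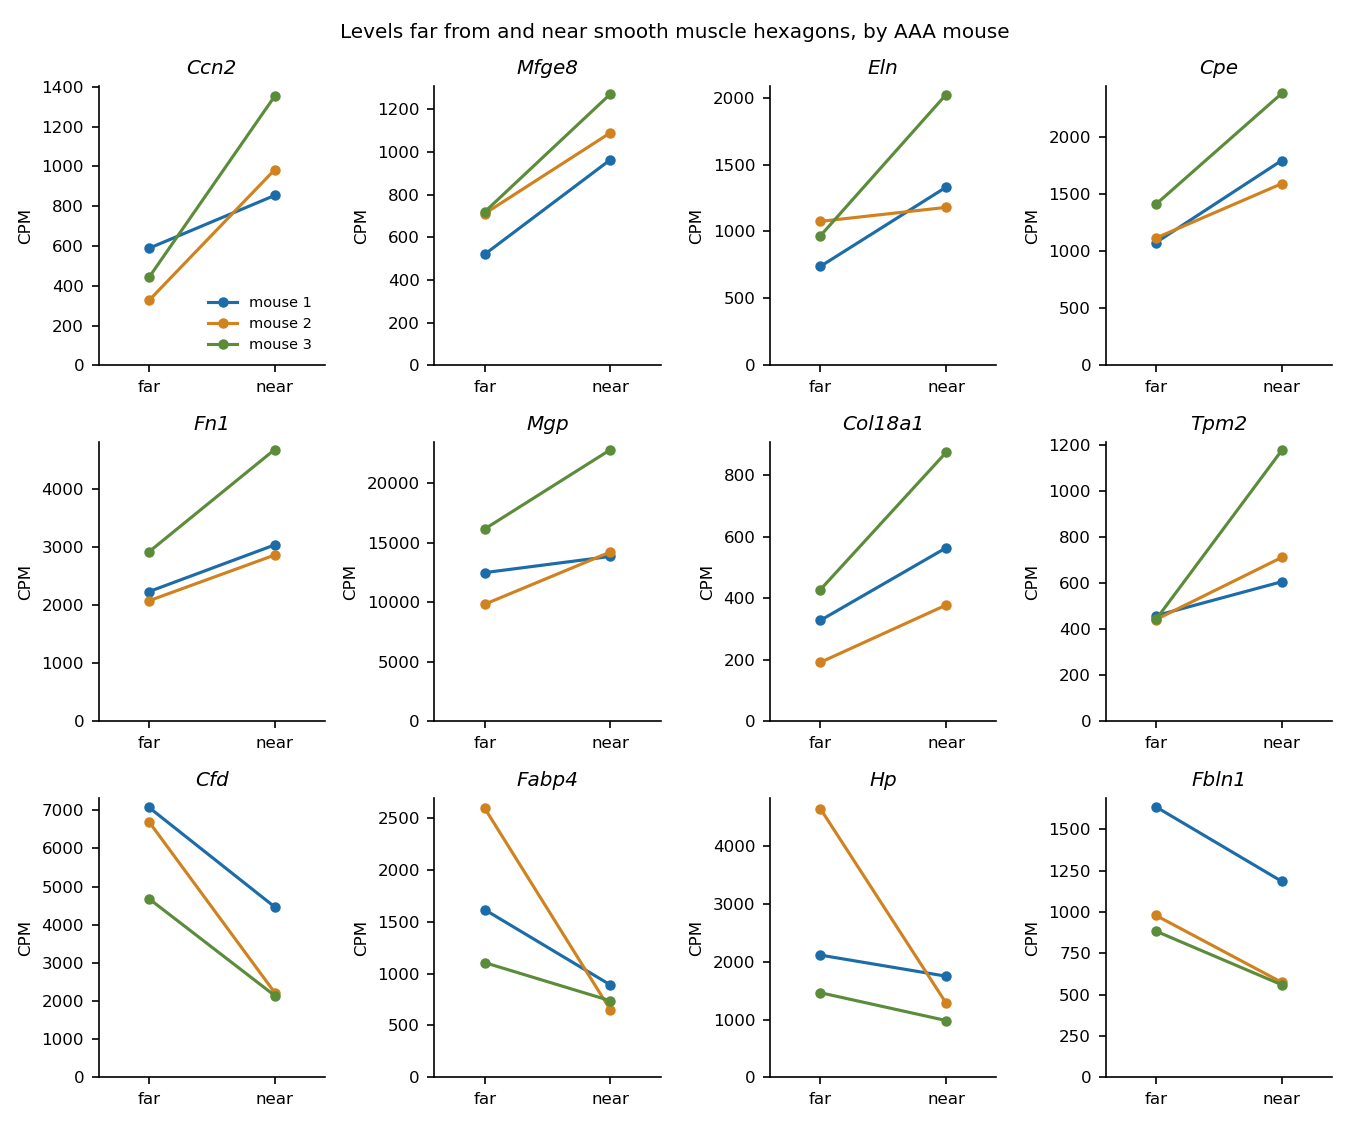
CPM far from and near smooth muscle hexagons for 12 genes, with 1 line per AAA mouse and axes that start at 0. In the upper 2 rows (Ccn2, Mfge8, Eln, Cpe, Fn1, Mgp, Col18a1, Tpm2) every line rises toward near, and in the bottom row (Cfd, Fabp4, Hp, Fbln1) every line falls.

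Of 18 tested contractile and smooth muscle genes that took no part in the definition of the zones, 4 rose near, against 1.3% of all tested genes, 0 fell and 14 did not pass. The median log2 fold change of the list was 0.44, against -0.02 for all genes. The study gives Cpe, Tpm2 and Myl6 as markers of its SMC cluster from these same sections. The list is thus not independent of these data, and its share of calls is description. Tpm2, a tropomyosin of contractile filaments, stood at 606, 711 and 1175 CPM near and at 458, 442 and 442 CPM far. Mouse 3 showed the largest step, as it did for the zone-defining genes. The log2 fold change was 0.79 ± 0.19 (SE; edgeR adjusted p = 0.00605), and without mouse 3 it was 0.52 and did not pass (edgeR adjusted p = 0.577). Myl6, a non-phosphorylated light chain of myosin found in smooth muscle and many other cells, stood at 2236, 2496 and 2814 CPM near and at 1916, 1939 and 1685 CPM far (log2 fold change 0.42 ± 0.12, edgeR adjusted p = 0.0317).

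The other 2 genes of this list that rose are not parts of the contractile apparatus. Cpe, which encodes carboxypeptidase E, a peptide-processing enzyme, had 1791, 1588 and 2377 CPM near and 1074, 1114 and 1409 CPM far and was higher near in all 10 sections (log2 fold change 0.69 ± 0.13, edgeR adjusted p = 0.000174). Sost, which encodes the Wnt antagonist sclerostin, had a log2 fold change of 1.43 ± 0.34 (SE; edgeR adjusted p = 0.00605), which was 0.73 without mouse 1 and then did not pass (edgeR adjusted p = 0.685). The value rests on few molecules, 48, 10 and 16 UMIs near and 8, 6 and 8 far, and Sost was higher near in 6 of 10 sections. Flna, the actin cross-linker filamin A, stood at 1310, 1256 and 1762 CPM near and at 958, 998 and 1202 CPM far, and missed the threshold (log2 fold change 0.46 ± 0.14, edgeR adjusted p = 0.054). Rhoc, a small GTPase that acts on the actin cytoskeleton, was on none of the lists and passed. It had 409, 605 and 574 CPM near and 301, 192 and 304 CPM far (log2 fold change 0.84 ± 0.23, edgeR adjusted p = 0.0285). In the comparison of hexagons without any contractile UMI, Tpm2, Myl6 and Cpe had log2 fold changes of 0.73, 0.46 and 0.43 and did not pass (edgeR adjusted p = 0.277, 0.157 and 0.302), and Sost could not be tested.

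Of 17 tested adipocyte genes, 5 fell near smooth muscle, against 0.613% of all tested genes, 0 rose and 12 did not pass. The median log2 fold change of the list was -0.55, and 14 of the 17 genes were lower near in all 3 mice, as were 16.8% of all genes. Cfd, Hp, Fabp4, Lpl and Glul are also among the study's markers of its adipose cluster from these same sections. This adipocyte list is thus not independent of these data, and its share of calls and its median are description. Cfd, which encodes adipsin, the complement factor D secreted by adipocytes, stood at 4467, 2224 and 2145 CPM near and at 7075, 6701 and 4683 CPM far. The groups did not overlap. Its log2 fold change was -1.07 ± 0.11 (SE, edgeR adjusted p = 2.8e-12), and it also passed in DESeq2 (log2 fold change -1.11, adjusted p = 4.79e-05). The size depended on the processing. With the hexagon grid moved it was -0.39 (edgeR adjusted p = 0.0473), and with UMIs over whole genes -0.44 (edgeR adjusted p = 0.00434).

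Fabp4, a fatty acid carrier of adipocytes that capillary endothelium and macrophages also express, stood at 890, 651 and 738 CPM near and at 1615, 2592 and 1105 CPM far (log2 fold change -1.10 ± 0.15, edgeR adjusted p = 2e-07). Hp, which encodes haptoglobin, a hemoglobin-binding protein made by liver and fat, stood at 1750, 1286 and 984 CPM near and at 2114, 4646 and 1464 CPM far. Its fall was largest in mouse 2 (log2 fold change -0.84 ± 0.14, edgeR adjusted p = 3.71e-05). Without mouse 2 the log2 fold change was -0.36 and without mouse 1 it was -1.29, and neither passed (edgeR adjusted p = 0.407 and 0.0509). Lpl and Glul, which encode lipoprotein lipase and glutamine synthetase, fell by 0.62 ± 0.15 and 0.61 ± 0.17 on the log2 scale (edgeR adjusted p = 0.0114 and 0.0365). Plaat3, a phospholipase abundant in fat, was on no list and fell by 1.10 ± 0.28 (edgeR adjusted p = 0.0148), while Scd1, a desaturase of fatty acid synthesis, did not pass (2542, 2496 and 2282 CPM near, 2744, 3994 and 2666 CPM far).

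Summed over all 22 genes of the list, none of them at 0, adipocyte RNA made up 9673 to 14867 CPM of the near zones and 15374 to 25670 CPM of the far zones. When hexagons with 2 or more UMIs of Cfd, Adipoq, Fabp4 and Car3 were left out, Cfd and Fabp4 differed by -0.35 and -0.21, as a filter on these genes brings about by construction. Lpl and Glul, which the filter did not use, moved to -0.18 and -0.07 and no longer passed, and Hp still did at -0.53 (edgeR adjusted p = 0.0152). Lpl and Glul are on the same adipocyte list as the filter's genes, so their shift can follow from the filter as well. In that fit Ccn2 had 1.03, Eln 0.71, Cpe 0.67 and Fn1 0.49. Mgp had 0.28 where it had 0.39 before, and Ccdc3, at 1.09, no longer passed (edgeR adjusted p = 0.07). The part of fat in the differences of these genes was not tested further.

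Cmpk1, a kinase of pyrimidine nucleotides, had the largest fall of the 8 lower genes and belongs to no group above. It had 9, 5 and 3 UMIs near and 23, 12 and 15 far in mice 1, 2 and 3, or 46.6, 75.6 and 41.0 CPM against 157, 230 and 207 CPM. It was lower near in 9 of 10 sections (log2 fold change -1.82 ± 0.38, edgeR adjusted p = 0.000858). Without the adipocyte hexagons its value was -1.93 (edgeR adjusted p = 0.0024). With UMIs over whole genes it was -0.61, and with a contractile minimum of 5 it was -0.41 (edgeR adjusted p = 0.596 and 0.955). Without mouse 1 its value was -1.91 and did not pass (edgeR adjusted p = 0.267). With so few molecules its size is uncertain.

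**Figure D4:**
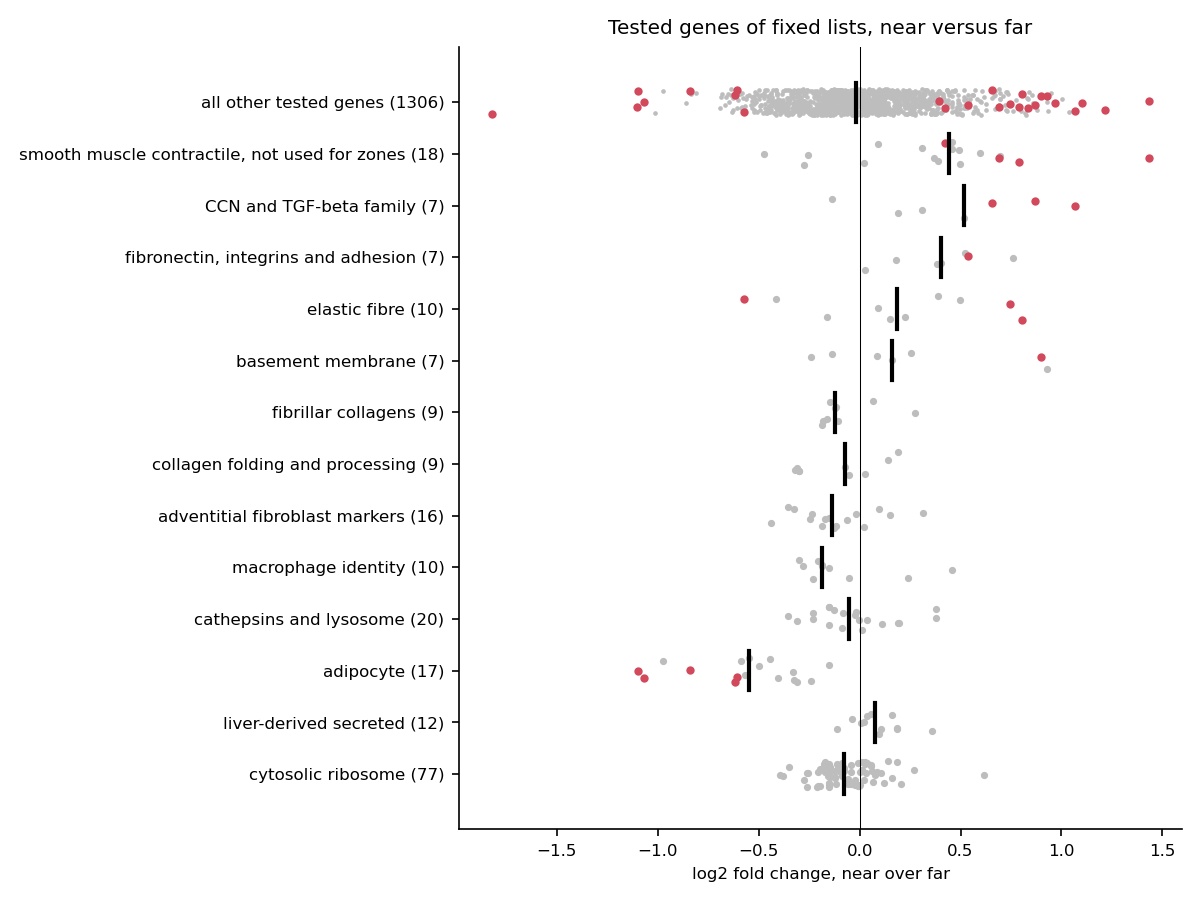
Log2 fold change of near over far tissue for the tested genes of 13 lists and for all 1306 other tested genes, with the number of genes in brackets. Each dot is a gene, red where the edgeR adjusted p is under 0.05, and the black bar is the median. The medians of the smooth muscle, CCN and adhesion lists are at 0.44, 0.52 and 0.41, that of the adipocyte list at -0.55, and those of the fibrillar collagen, macrophage and ribosome lists at -0.12, -0.19 and -0.08.

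Of 9 tested fibrillar collagen genes, which encode the load-bearing scaffold of the adventitia, 0 passed, and the median of the list was -0.12. With 1.91% of all genes called, 0 of 9 says little about the list. Col3a1 stood at 6031, 5673 and 5916 CPM near and at 7362, 4666 and 8232 CPM far. Mice 1 and 3 were lower near and mouse 2 was higher, and the log2 fold change was -0.18 ± 0.10 (SE; edgeR adjusted p = 0.528). Without mouse 2 it was -0.36 and passed (edgeR adjusted p = 0.022). Col1a2 showed the same arrangement of mice, with 3976, 3101 and 4344 CPM near and 4639, 2266 and 5705 CPM far, and Col1a1 had 2505, 1528 and 2063 CPM near and 2443, 1478 and 2845 CPM far. Their log2 fold changes were -0.11 ± 0.11 and -0.12 ± 0.12 (SE; edgeR adjusted p = 0.829 and 0.825).

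Among proteins that process or decorate collagen, 0 of 9 tested folding and processing genes and 0 of 6 proteoglycan genes passed. Bgn, which encodes the proteoglycan biglycan, was higher near in all 3 mice at 3655, 3147 and 4959 CPM against 3360, 2400 and 3439 CPM (log2 fold change 0.33 ± 0.10, edgeR adjusted p = 0.0826). Dcn, its relative decorin, was lower near in all 3 mice at 1667, 1195 and 1148 CPM against 1847, 1440 and 1437 CPM (log2 fold change -0.23 ± 0.13, edgeR adjusted p = 0.569). Of 16 tested adventitial fibroblast markers, 0 passed, and their median was -0.14. With 1.91% of all tested genes called, 0 of 9, 0 of 6 and 0 of 16 say little about these lists. C3, the central complement component and one of these markers, had 2821, 2209 and 1503 CPM near and 3004, 2880 and 1879 CPM far. Tmem119, a membrane protein known from bone-forming cells and microglia and placed here on the fibroblast list, had 212, 75.6 and 54.7 CPM near and 144, 134 and 180 CPM far, and its direction was not the same in the 3 mice.

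Macrophage RNA was found in both zones. Of 10 tested macrophage identity genes 0 passed, which the share of calls among all genes would also give, and their median log2 fold change was -0.19, against -0.02 for all genes. Over all 23 genes of the list the summed level was 4348 to 5446 CPM near and 4723 to 5415 CPM far. Gpnmb, a transmembrane glycoprotein of lipid-laden macrophages, had 637, 1195 and 1557 CPM near in mice 1, 2 and 3 and 452, 1267 and 787 CPM far. It was higher near in mice 1 and 3 and lower in mouse 2 (log2 fold change 0.48 ± 0.16, edgeR adjusted p = 0.113). Gpnmb passed in 4 alternatives, with 0.75 without mouse 2, 0.67 with at least 75 genes per hexagon, 0.68 without lone smooth muscle hexagons as reference and 0.52 over whole genes (edgeR adjusted p = 0.0125, 0.0406, 0.0278 and 0.0132), and had -0.22 with a contractile minimum of 2. Gpnmb had 0.09 with far over 180 μm, 0.23 with the moved grid and 0.25 without mouse 3 (edgeR adjusted p = 0.967, 0.816 and 0.944). Its mean was 1130 CPM near, 648 CPM at 45 to 90 μm, 727 CPM at 90 to 180 μm and 1166 CPM beyond. Ctsb, the lysosomal protease cathepsin B, had 1134, 1422 and 1257 CPM near and 1020, 1517 and 1437 CPM far (log2 fold change -0.02 ± 0.13, edgeR adjusted p = 0.987). Lyz2, the lysozyme of myeloid cells, differed by -0.30 ± 0.15 and C1qb, a subunit of complement C1q, by 0.46 ± 0.21, and neither passed (edgeR adjusted p = 0.454 and 0.382).

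Among other cell types, the immunoglobulin light chain gene Igkc of plasma cells had 818, 711 and 806 CPM near and 1074, 1248 and 953 CPM far. These groups did not overlap, as held in this direction for 6.05% of all tested genes, and the log2 fold change was -0.45 ± 0.15 (SE; edgeR adjusted p = 0.114). The hemoglobin gene Hba-a2, a sign of blood, had 1248, 953 and 751 CPM near and 684, 864 and 649 CPM far (log2 fold change 0.52 ± 0.16, edgeR adjusted p = 0.0737), and it passed without mouse 2 at 0.67 (edgeR adjusted p = 0.0311). The other tested erythrocyte gene, Hbb-bs, went the other way, with 373, 242 and 205 CPM near and 383, 269 and 318 CPM far (log2 fold change -0.20 ± 0.24, edgeR adjusted p = 0.844). Without hexagons that held 2 or more hemoglobin UMIs, 9 genes were called higher and 6 lower. Of 5 tested endothelial genes only Fabp4 passed, which is also on the adipocyte list, against 1.91% of all tested genes. Neutrophil, mast cell and striated muscle lists had no tested gene.

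RNAs of liver proteins were counted in both zones. Free RNA on the array can give such UMIs too, so these counts do not show that cells of the wall make these RNAs. Their source was not tested. Alb, which encodes serum albumin, stood at 8821, 9062 and 8539 CPM near and at 8375, 8256 and 8177 CPM far (log2 fold change 0.09 ± 0.08, edgeR adjusted p = 0.825), and 0 of 12 tested genes of the liver list passed. Apoe, the gene targeted in these mice, had 5089, 5522 and 5041 CPM near and 4961, 4877 and 5332 CPM far. Apoe-/- alleles can leave transcript outside the altered part, which the sources used here do not place relative to the counted UMIs, so these counts check nothing about the genotype. Of 77 tested genes of the cytosolic ribosome, 23 nuclear genes of the respiratory chain and 20 lysosomal genes, 0 passed in either direction. With 1.91% of all tested genes called, these counts and that of the liver list say little about the lists.

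Levels were also followed along the distance. Means over the 3 mice were taken in smooth muscle hexagons and at 0 to 45, 45 to 90, 90 to 180 and over 180 μm, with no test, and the first and the last 2 of these distances are the zones compared above. The genes were chosen for their difference between these zones, so their order at the ends, and largely that of the middle, follows from the choice. In smooth muscle hexagons, 16 of the 17 genes higher near stood above their level at 0 to 45 μm, the exception being Ccn5, with 468 CPM there and 724 CPM near.

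Cpe fell from 2633 ± 866 CPM (SD, n = 3) in smooth muscle hexagons to 1919 ± 410 near, 1374 ± 516 at 45 to 90 μm and 1200 ± 227 at 90 to 180 μm, and stood at 1209 ± 62.8 CPM beyond. Ccn2 went from 1282 ± 782 to 1063 ± 259, 600 ± 64.1, 438 ± 157 and 499 ± 68.6 CPM over the same steps. Its smooth muscle level differed widely between mice, at 2073, 509 and 1264 CPM, and in mice 2 and 3 it was below that of near tissue. For 11 of the 17 genes the mean rose again beyond 180 μm.

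Of the 8 genes lower near, 6 had a lower mean in smooth muscle hexagons than near and 2 a higher one. The 2 were Plaat3, with 272 CPM in smooth muscle hexagons and 129 CPM near, and Cmpk1, with 79.9 and 54.4 CPM. Cfd went from 2043 ± 578 CPM in smooth muscle hexagons to 2945 ± 1319, 4258 ± 1220, 5818 ± 630 and 7460 ± 4408 CPM. Beyond 180 μm the mice diverged, with 11949 CPM in mouse 1, 7293 CPM in mouse 2 and 3138 CPM in mouse 3. Col3a1, which did not pass between the zones, had 4622 ± 488 CPM in smooth muscle hexagons and 5873 ± 183, 6391 ± 791, 6836 ± 1801 and 6477 ± 2051 CPM outward.

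**Figure D5:**
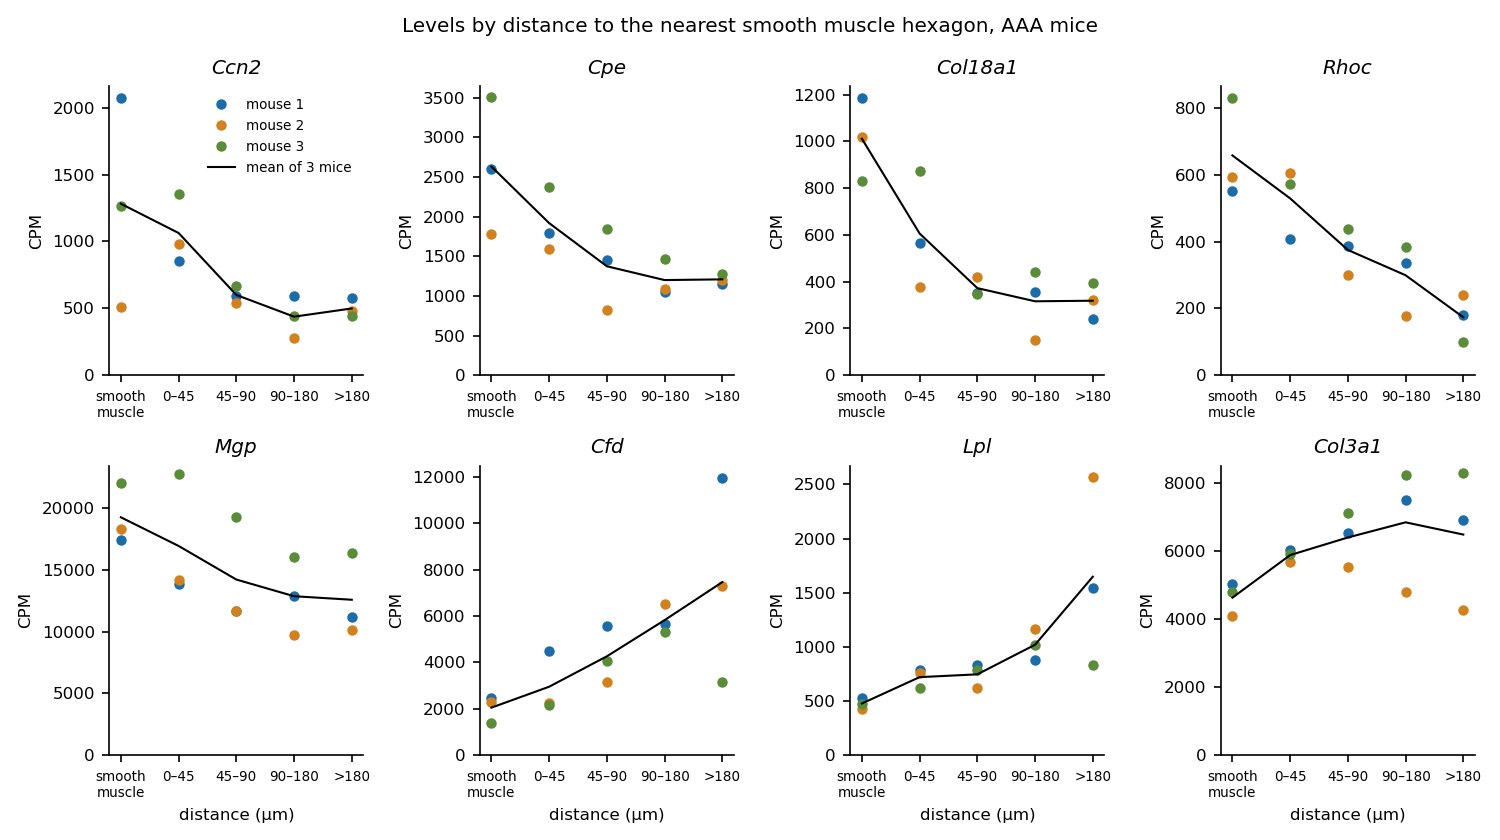
CPM of 8 genes in smooth muscle hexagons and at 4 distances from them, with 1 point per AAA mouse and a line through the mean of 3 mice. Ccn2, Cpe, Col18a1, Rhoc and Mgp fall with distance and level off beyond 90 μm except Rhoc, Cfd and Lpl rise with a wide spread beyond 180 μm, and Col3a1 is lowest in smooth muscle hexagons.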

How the data were processed

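Seq-Scope was run on 1 array that held 20 sections of AAA and control aortas of 3 mice each. The deposited values are UMI counts per gene and spatial barcode, which the authors made with STARsolo 2.7.5c on mm10, for exonic reads and for whole genes; 2 RNA libraries are pooled in 1 matrix of 32285 genes and 9837644 barcodes, with 8672204 exonic UMIs. The labels do not assign positions to mice, so sections were placed by the outlines the study drew, fitted to 40 section edges with a residual SD of 68.4 μm.

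Exonic counts were summed over hexagons with 12 μm sides (26.6 position units per μm; centres 20.8 μm apart), after 8551 genes with names starting mt or Gm were removed. Hexagons of a mouse are not replicates, so they were summed to 1 near and 1 far count per mouse. These 6 sums were compared with the quasi-likelihood test of edgeR 4.0.16 (R 4.3.3), TMM scaling, edgeR's filter on low counts and mouse as a block. P-values were adjusted by Benjamini-Hochberg over all 1310 tested genes, 4 of which had defined the zones and were left out of all counts. A paired permutation over 3 mice cannot go below a two-sided p of 0.25. The pairs come from the same mice and sections, and near and far deviations from the group means correlated at 0.112, 0.12 and 0.142 in mice 1, 2 and 3. The scripts were tested on simulated data with known changes, with a common dispersion for all genes and no differences between mice. Of log2 changes of 1, 77% were recovered, of changes of 0.5 26%, and 0.36% of unchanged genes were called. A gene that did not pass can thus still differ.

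DESeq2 1.42.0, other scalings, filters, gene minimums, contractile minimums, distances, grids and hexagon selections, and each mouse left out, were alternatives; 2 of the 23 were added after seeing the data. The zones and gene lists were chosen with earlier results of these data known. Named were the up to 15 called genes of largest change each way with the same sign in all mice, the 3 most counted and all called genes of each list, and genes the study named for Seq-Scope. Python 3.11.15, numpy 2.4.6, scipy 1.17.1, pandas 2.3.3 and matplotlib 3.10.9 were used otherwise. The annotation release used by the authors is not given in the sources used here; coordinates are those of GRCm38, the assembly that mm10 denotes. The study's single-cell data and control sections were not analysed here.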

Additional observations from a re-analysis of the deposited data

How the results depend on the processing

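All 25 called genes kept their direction in all 554 values from the 23 alternatives, and 280 of these values also passed the threshold. The alternatives reuse the UMIs in which these genes were called, so the kept directions say little. The counts of genes higher and lower near stayed within 1.5 times 17 and 8 with library size alone, RLE size factors, Csrp2 left out (12 and 6), hexagons of 50 to 99 genes, and without lone smooth muscle hexagons as reference (20 and 10). DESeq2 gave 0 and 1, the fit without the mouse block, that is without pairing, 1 and 3, and no low-count filter 8 and 4, where 18122 genes were adjusted over. Leaving out 1 mouse gave 2 to 14 higher and 1 to 5 lower. Hexagons without contractile UMIs gave 1 and 2 (627 genes tested), a contractile minimum of 2 gave 0 and 1, and one of 5 gave 27 and 2. A minimum of 75 genes gave 9 higher, far over 180 μm 0 and 2, the first section of mouse 3 left out 6 and 3, the moved grid 11, near within 25 μm 5 lower, smooth muscle hexagons of any gene number 9 and 2, UMIs over whole genes 31 and 2, no adipocyte hexagons 4 lower, and no hemoglobin hexagons 9 higher. Apart from smaller sets of genes, hexagons or mice, the cause was not tested. With the moved grid, 23 of the 25 called genes could be tested and 13 of them passed. Lpl had -0.20, Plaat3 -0.43 and Htra1 0.60 there, and none of these passed (edgeR adjusted p = 0.836, 0.775 and 0.704).

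Directions that turned all belong to genes not called. With a contractile minimum of 2, log2 fold changes were -0.22 for Gpnmb, 0.098 for Col3a1, 0.040 for Col1a1, 0.059 for Col1a2, 0.051 for Igkc, 0.062 for C3 and 0.092 for Dcn. With a minimum of 5 they were -0.092 for Alb, -0.056 for Apoe, -0.52 for Hba-a2, 0.072 for Ctsb and 0.37 for Tmem119. Over whole genes they were 0.044 for Col1a1, 0.034 for Col1a2 and 0.30 for Ctsb. Col1a2 had 0.026 with 75 genes, Alb -0.0040 and Apoe -0.030 with the moved grid, and Ctsb 0.062 without the first section of mouse 3, 0.035 near within 25 μm and 0.00050 with reference hexagons of any gene number. Tmem119 had 0.24 without lone reference hexagons. With 1 mouse left out, Col1a1 ranged from -0.25 to 0.060, Col1a2 from -0.28 to 0.069, Apoe from -0.0014 to 0.12, Ctsb from -0.15 to 0.074 and Tmem119, where it could be tested, from 0.032 to 0.31.

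Some called genes rest on few molecules, as the near zone of mouse 3 held 3 UMIs of Cmpk1.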
